A study of Homo sapiens with 24 samples.

Results

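The genes described here are those of HLA class II antigen presentation: the α and β chain genes of HLA-DR, HLA-DP and HLA-DQ (HLA-DRA, HLA-DRB1, HLA-DPA1, HLA-DPB1, HLA-DQA1 and HLA-DQB1), the peptide exchange factor genes HLA-DMA and HLA-DMB, the invariant chain gene CD74, and CIITA, which encodes the class II transactivator. They were chosen by name, through the Ensembl identifier of each row, and make up 10 of the 39321 genes in the deposited count matrix. All 10 had a row, and each was followed across the 24 RNA-seq libraries of the series. RNA was taken from A-498 and 786-0, established human clear cell renal cell carcinoma lines, each derived from the tumour of a single patient. Cells carried 1 of 2 transfected siRNAs at 20 nM, a scrambled control (Cnsi) or a pool against PD-L1 (PD-L1si), and were left without cytokine or given IFNγ at 50 ng/mL for 24 h. These choices gave 4 groups in each line (Cnsi, Cnsi with IFNγ, PD-L1si, and PD-L1si with IFNγ) with 3 replicates each, and the labels call the PD-L1si groups a knockout although the agent was an siRNA. The labels do not say that replicates were separate cultures, so p-values measure the spread between these libraries, which may be technical.

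Class II molecules are αβ heterodimers that carry peptides made in endosomes to the cell surface, where CD4+ T cells read them. The invariant chain fills the binding groove until it is cut down to a short peptide, which HLA-DM then exchanges for others. Professional antigen-presenting cells make class II constantly, whereas epithelial cells, the renal tubule included, make it when IFNγ acts through JAK kinases and IRF1 to switch on CIITA. CIITA does not itself bind DNA. It is held at class II, HLA-DM and CD74 promoters by factors bound to short conserved boxes, the RFX complex at the X box and NF-Y at the Y box, which reads ATTGG on one strand and CCAAT on the other.

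The chain and HLA-DM genes lay in the class II region of chromosome 6, from HLA-DRA at chr6:32439878-32445046 to HLA-DPB1 at chr6:33075990-33089696 (GENCODE release 44 on GRCh38). CD74 lay at chr5:150401637-150412969 and CIITA at chr16:10866222-10943021. HLA-DPA1 (chr6:33064569-33080775) and HLA-DPB1 stand head to head, on opposite strands, and their spans overlap. Promoter sequences, from 250 bases before to 50 after the gene start, were taken from RefSeq for 8 of the 10 genes (GRCh38.p14), HLA-DRA and CIITA having no entry. The letters CNAGNNAC, taken for the X box, were searched on both strands together with ATTGG, and a pair was scored where ATTGG or CCAAT followed the X letters after 10 to 40 bases. The letters were chosen after these sequences had been seen. Such a pair stood in 5 of the 8 promoters and in 2.27% of all 35116 promoters in the RefSeq table, while the X letters alone stood in 39.3% and ATTGG alone in 34.6%. The 5 stretches are shown because they place the shared X and Y letters of 3 chain genes, HLA-DMA and CD74 side by side. They are written along the strand of the gene, 5′ to 3′, and the capitals mark the X letters and then the Y letters.
HLA-DRB1 (chr6:32589884-32589935, minus strand): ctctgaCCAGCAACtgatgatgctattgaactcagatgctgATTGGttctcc
HLA-DQA1 (chr6:32637296-32637348, plus strand): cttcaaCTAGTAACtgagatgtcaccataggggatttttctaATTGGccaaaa
HLA-DQB1 (chr6:32666735-32666786, minus strand): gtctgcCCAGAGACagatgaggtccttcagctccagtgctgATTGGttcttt
HLA-DMA (chr6:32953166-32953218, minus strand): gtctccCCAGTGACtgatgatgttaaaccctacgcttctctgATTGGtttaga
CD74 (chr5:150412953-150412999, minus strand): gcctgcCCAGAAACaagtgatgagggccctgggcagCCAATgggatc
The gap between the 2 boxes was 22 bases in CD74 and 27 or 28 in the 4 HLA promoters. The X letters began 81 to 123 bases before the gene start of the RefSeq entry. That start can differ from the GENCODE one. The CD74 stretch reaches into the GENCODE span given above. Those of HLA-DQA1, HLA-DQB1 and HLA-DMA lie wholly inside the GENCODE spans of their genes, and that of HLA-DRB1 lies outside. CD74 carried the Y letters in the other orientation. HLA-DMB held both sets of letters without the pair, HLA-DPB1 held ATTGG without the X letters, and of the 2 HLA-DPA1 entries 1 held the X letters. These matches are letters in a window and say nothing of binding in these cells.

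Libraries held 19256316 to 30350461 counts each. The line names used here are those of the labels: the study's supplementary tables attach some of the same expression patterns to the other line's name, so A-498 and 786-0 stand below for the libraries so labelled and not for a line whose identity was checked. The study sequenced the lines on different instruments, so line and instrument cannot be told apart, and levels were not tested between lines. In the libraries labelled 786-0, 1475 genes with over 1000 summed counts in those labelled A-498 stood at 0 in all 12 and are treated as not measured there. None of the 10 class II genes was among them. CD274, the gene of PD-L1, checked the siRNA labels. Under IFNγ it had 4546, 5134 and 3976 counts with Cnsi and 617, 540 and 571 with PD-L1si in A-498, and 1554, 1612 and 1670 against 853, 894 and 848 in 786-0. The siRNA groups did not overlap, and the differences were -2.81 and -0.94 on the log2 scale (edgeR quasi-likelihood test, adjusted p = 1.6e-29 and 6.72e-10). Of the 10 renal carcinoma markers examined, none was at 0 in all A-498 libraries and PAX2 alone was at 0 in all 786-0 libraries, where it counts as not measured. Of 14 genes that mark antigen-presenting and other blood cells, 11 had a row, and their summed level (CPM, counts scaled to library size by the TMM method) was 0.718 to 1.08 CPM in untreated and 0.264 to 0.713 CPM in treated libraries labelled A-498, and 0.656 to 1.23 and 0.959 to 1.22 CPM in those labelled 786-0. TYROBP and CD1C were at 0 in all A-498 libraries. ITGAX, CSF1R and SPI1, myeloid genes, were at 0 in all 786-0 libraries and count as not measured there, so the 786-0 sums cover the other 8 genes. In A-498 CSF1R, at 1 to 12 counts, was called lower with IFNγ (-2.15), 1 of 3 tested, and in 786-0 0 of 3 were called by edgeR, none at an unadjusted p under 0.05.

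All 10 genes rose with IFNγ in both lines and with either siRNA. A gene is called changed here at an adjusted p under 0.05 (Benjamini-Hochberg, over all genes tested in the line) if its log2 fold change was also above 0.5 or below -0.5. With Cnsi, 10 of 10 were called higher in A-498, where 18.2% of the 20916 genes tested were, and 10 of 10 in 786-0, where 11.1% of 21209 were. With PD-L1si the counts were again 10 and 10, against 17.6% and 11% of all genes. For every one of the 10 genes, each treated library lay above each untreated library of the same line and siRNA. The median log2 fold change of the 10 genes with Cnsi was 10.30 in A-498, with 4 genes set at a lower bound, and 5.51 in 786-0, against -0.03 and 0.00 over all genes. In bulk RNA, more cells expressing a gene and more RNA per cell cannot be told apart.

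**Figure D1:**
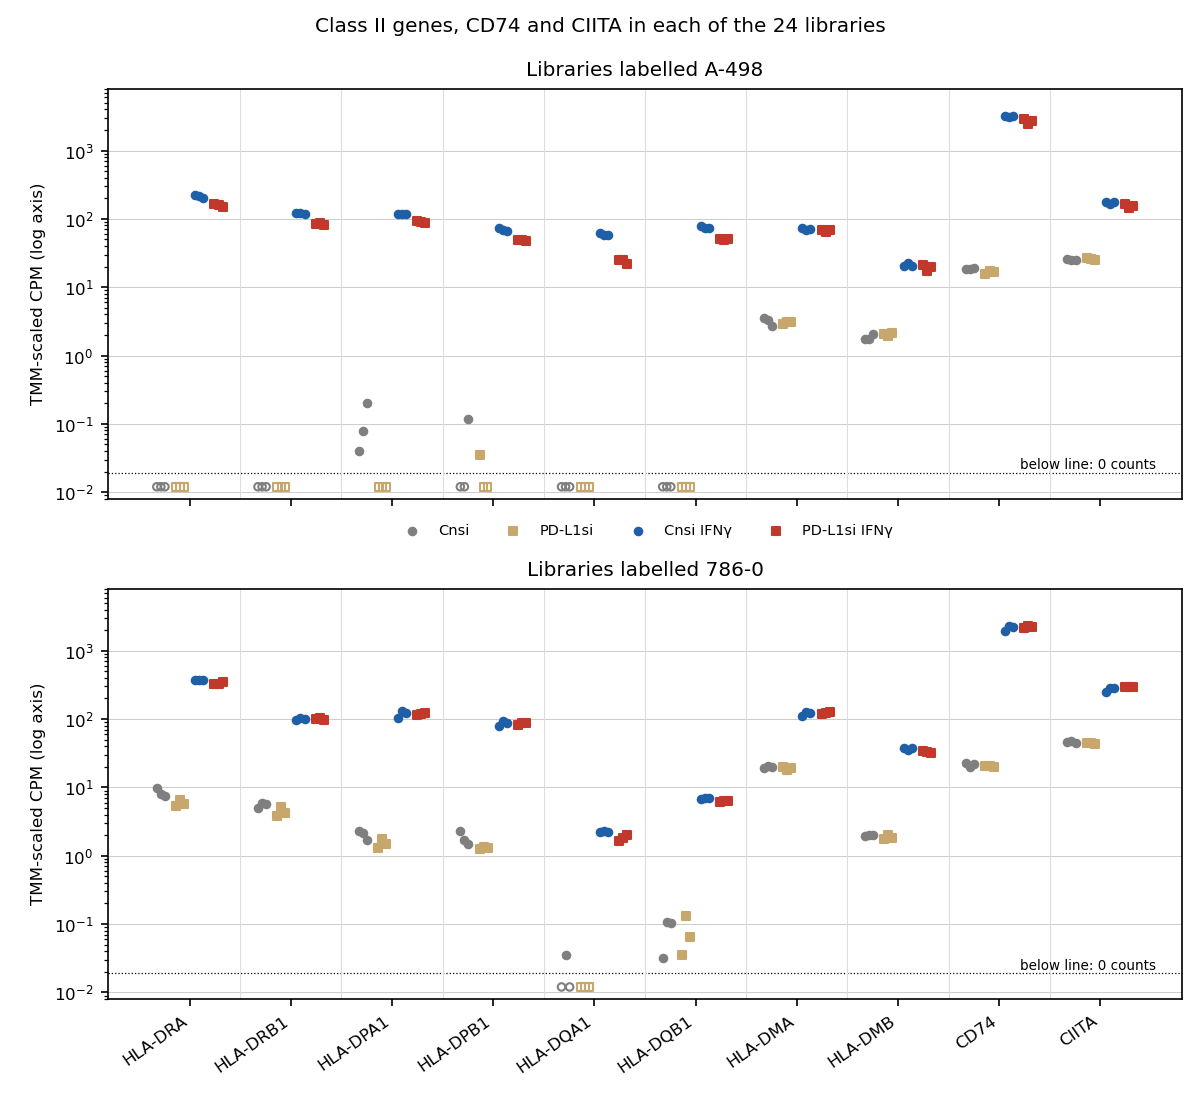
TMM-scaled CPM (log axis) of the 10 genes in each of the 24 libraries, A-498 above and 786-0 below; each point is 1 library, coloured by group, and open points under the dotted line are libraries with 0 counts. In A-498 the DR and DQ chains sit at 0 without IFNγ, whereas in 786-0 HLA-DRA has 5.34 to 9.94 CPM without it.

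CIITA was detected without IFNγ in both lines. In A-498 it had 654, 625 and 630 counts with Cnsi and 4188, 4269 and 3684 after IFNγ, a rise of 2.77 ± 0.0519 on the log2 scale (SE, n = 3 per group, edgeR adjusted p = 4.15e-32). In 786-0 it had 1447, 1339 and 1293 counts, and 6878, 7578 and 7293 after IFNγ, a rise of 2.56 ± 0.0553 (adjusted p = 8.08e-23). CIITA was thus read in every untreated library of both lines, also where the DR and DQ chains had no read. Part of its row cannot be assigned with certainty, since 10.5% of its annotated exon bases overlap another gene on the same strand.

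The DR chains, of which HLA-DRA is the nearly invariant α chain and HLA-DRB1 the polymorphic β chain, separated the lines in their untreated state. In A-498 both had 0 counts in each of the 6 untreated libraries, where 0 counts over the 3 libraries of the Cnsi group allow at most 0.0398 CPM. After IFNγ with Cnsi, HLA-DRA had 5382, 5553 and 4189 counts and HLA-DRB1 had 2921, 3175 and 2438. Against a floor of 3 counts over the untreated group, HLA-DRA was at least 5391-fold higher and HLA-DRB1 at least 3042-fold higher. These bounds cover counting error alone. In 786-0 the untreated Cnsi libraries held 311, 222 and 215 HLA-DRA counts, and the treated ones 10441, 10050 and 9318 (log2 rise 5.46 ± 0.0785, adjusted p = 3.4e-25). HLA-DRB1 went from 155, 163 and 168 counts to 2691, 2808 and 2577 in 786-0 (4.19 ± 0.0778, adjusted p = 2.94e-24). DR transcripts were therefore listed in every untreated 786-0 library and in no untreated A-498 library.

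The DP chains, a second class II isotype, had a few reads in untreated A-498 cells and more in untreated 786-0 cells. In A-498 the Cnsi libraries held 1, 2 and 5 HLA-DPA1 counts and 0, 0 and 3 HLA-DPB1 counts, and the treated ones 2843, 2991 and 2449 and 1743, 1748 and 1394. HLA-DPA1 was 1107-fold higher by CPM, on 8 untreated counts of which 5 lay in replicate 3, and its log2 rise went from 10.04 to 10.83 without that library. HLA-DPB1, with 3 untreated counts, was 1741-fold higher with a 95% counting interval of 595 to 8446. In 786-0 HLA-DPA1 had 73, 60 and 50 counts before and 2852, 3486 and 3088 after IFNγ (log2 rise 5.83 ± 0.106). HLA-DPB1 had 71, 48 and 43 before and 2236, 2546 and 2204 after (5.57 ± 0.0958). The DP genes overlap in span on opposite strands. The strand setting of the counting was not checked, and how reads divide between these rows was not measured.

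The DQ chains were at or next to 0 without IFNγ in both lines and reached different levels with it. HLA-DQA1 had 0 counts in the 6 untreated A-498 libraries and 1482, 1521 and 1201 counts after IFNγ with Cnsi, at least 1498-fold higher. HLA-DQB1 likewise went from 0 to 1854, 1897 and 1520 counts, at least 1879-fold higher. In 786-0 HLA-DQA1 had 0, 1 and 0 counts and then 63, 62 and 56, a ratio of 199 with a counting interval of 35.3 to 7912. HLA-DQB1 had 1, 3 and 3 counts there and then 186, 188 and 180 (log2 rise 6.37 ± 0.238, adjusted p = 1.54e-17). With Cnsi, the treated 786-0 libraries thus held 56 to 63 HLA-DQA1 counts where the treated A-498 libraries held at least 1201. The reads were aligned to a single reference genome without soft clipping, and how far the HLA alleles of each line affect the counts of these polymorphic genes was not measured. Of the 100-base windows along the HLA-DQA1 exons, 0.50% are identical to HLA-DQA2. No other chain or HLA-DM gene shared a window with another annotated HLA class II gene, and genes outside class II were not compared.

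HLA-DMA and HLA-DMB, whose products form the peptide exchange factor, were transcribed in untreated cells of both lines. In A-498 with Cnsi, HLA-DMA went from 89, 83 and 68 counts to 1738, 1796 and 1477 (log2 rise 4.48 ± 0.0749), and HLA-DMB from 44, 44 and 51 to 488, 589 and 420 (3.52 ± 0.108). In 786-0 HLA-DMA started higher, at 607, 567 and 581 counts, and reached 3065, 3375 and 3100 (2.58 ± 0.0597). HLA-DMB went from 61, 57 and 58 counts to 1060, 964 and 968 in 786-0 (4.22 ± 0.0860). All 4 rises had an adjusted p of at most 3.5e-22. A read-through gene overlaps 6.35% of HLA-DMA and 9.49% of HLA-DMB exon bases on the same strand.

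CD74 reached the highest level of the 10 genes. In A-498 with Cnsi it went from 460, 470 and 473 counts to 77366, 79290 and 66570, which is 170-fold by CPM and 7.41 ± 0.0614 on the log2 scale (adjusted p = 8.72e-43). In 786-0 it went from 718, 552 and 641 counts to 54661, 62590 and 56079 (6.65 ± 0.0726, adjusted p = 1.04e-28). CD74 took 0.00185% to 0.00192% of the counts of an A-498 Cnsi library without IFNγ and 0.284% to 0.297% with it, where it stood 17th or 18th among all genes. In the treated 786-0 Cnsi libraries it took 0.189% to 0.218% and stood between ranks 28 and 41.

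The same rises were seen in cells that carried PD-L1si, measured against their own untreated libraries. In A-498 the log2 rise was 4.49 for HLA-DMA, 3.25 for HLA-DMB, 7.34 for CD74 and 2.57 for CIITA, and HLA-DRA was at least 4205-fold higher and HLA-DQA1 at least 637-fold. In 786-0 the log2 rise was 5.83 for HLA-DRA, 4.49 for HLA-DRB1, 6.29 for HLA-DPA1, 6.05 for HLA-DPB1, 6.24 for HLA-DQB1, 2.69 for HLA-DMA, 4.14 for HLA-DMB, 6.77 for CD74 and 2.76 for CIITA. HLA-DQA1, at 0 in the untreated 786-0 PD-L1si libraries, was at least 54.3-fold higher.

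**Figure D2:**
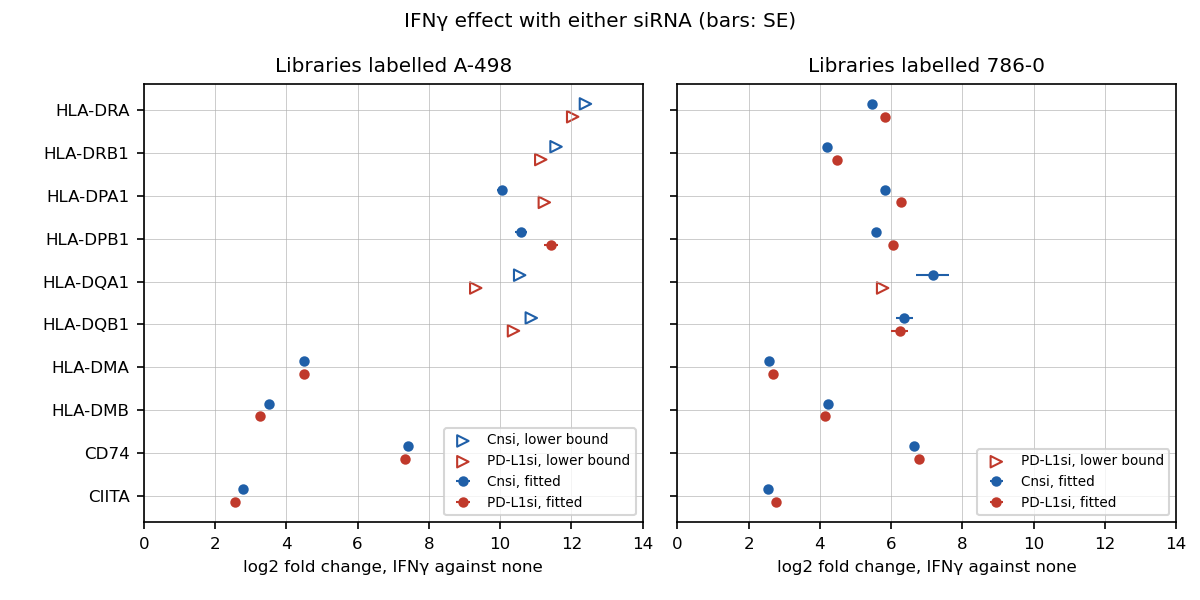
Log2 fold change of each gene with IFNγ against none (x axis), with Cnsi or PD-L1si, in A-498 (left) and 786-0 (right); points are edgeR estimates with their SE, and arrows are lower bounds where the untreated group had 0 counts. CIITA has the smallest estimated rise in both lines with Cnsi (2.77 and 2.56), and the DR and DQ chains sit at bounds in A-498.

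Levels were compared between genes per kilobase, with the exon union of each gene as its length (CPM per kb). In A-498 with Cnsi and IFNγ the order of levels was CD74 (701), HLA-DRA (172), HLA-DRB1 (39.2), HLA-DMA (28.2), HLA-DPA1 (20.5), HLA-DQB1 (15.3), HLA-DPB1 (13.3), HLA-DQA1 (8.66), CIITA (7.66) and HLA-DMB (4.59), and the 3 libraries of no gene overlapped those of its neighbour. In 786-0 with Cnsi and IFNγ it was CD74 (478), HLA-DRA (298), HLA-DMA (47.2), HLA-DRB1 (32.6), HLA-DPA1 (20.5), HLA-DPB1 (16.7), CIITA (12.0), HLA-DMB (8.08), HLA-DQB1 (1.41) and HLA-DQA1 (0.327), where HLA-DPA1 and HLA-DPB1 overlapped. The invariant chain and then the DR α chain thus headed the order, and both did so in each of the 4 IFNγ groups under each of the 3 lengths tried (exon union, longest transcript, Ensembl canonical transcript). The DQ chains stood last in 786-0 under each length. In A-498 HLA-DQA1 stood 2 places above the last gene with Cnsi and was itself last with PD-L1si (3.46), by exon union. Without IFNγ the order differed. In 786-0 with Cnsi HLA-DMA (7.88) and HLA-DRA (6.77), whose libraries overlapped, stood above CD74 (4.76) and CIITA (2.05) by exon union, whereas CD74 stood above HLA-DRA by longest transcript (7.04 and 6.82, overlapping) and by canonical transcript (13.0 and 6.82). In A-498 with Cnsi CD74 (4.12) stood above HLA-DMA (1.26) and CIITA (1.12), which overlapped, and HLA-DMB (0.400). With IFNγ, places below the first 2 depend on the length: with the canonical transcript HLA-DPB1 fell below both DQ chains in A-498 and CIITA was last there.

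Isotypes were compared as shares of the summed DR, DP and DQ level, both chains of each counted (mean ± SD, n = 3). With IFNγ and Cnsi, DR took 78.5% ± 0.550, DP 12.5% ± 0.381 and DQ 8.90% ± 0.173 in A-498, and 89.5% ± 0.916, 10.0% ± 0.910 and 0.470% ± 0.0105 in 786-0. With PD-L1si the A-498 shares were 79.9% ± 0.134 for DR, 13.0% ± 0.0510 for DP and 7.08% ± 0.144 for DQ. DR led in every IFNγ group, and the DQ share of A-498 was lower in each PD-L1si library than in each Cnsi library. With canonical transcript lengths, a choice made after the data were seen, the DQ share was 19.1% with Cnsi and 15.0% with PD-L1si in A-498, and 1.20% and 1.12% in 786-0.

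**Figure D3:**
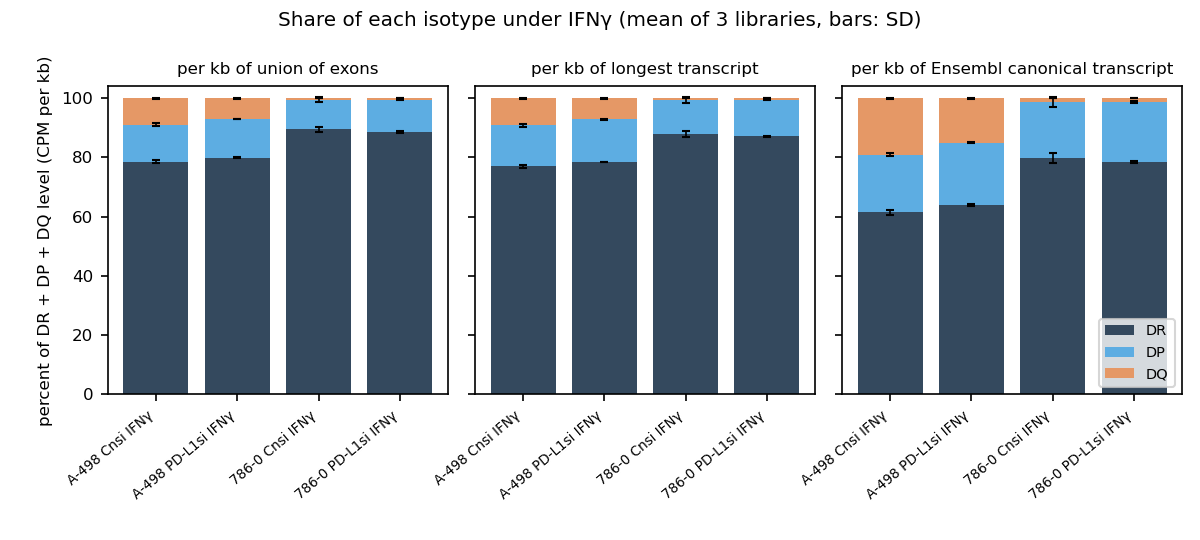
Share of DR, DP and DQ in their summed level (CPM per kb, percent) in the 4 IFNγ groups, under 3 gene lengths; bars are stacked means of 3 libraries with SD. DQ forms 8.90% in A-498 and 0.470% in 786-0 with Cnsi by exon union, and 19.1% and 1.20% by canonical transcript.

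Part of the class II genes were lower in IFNγ-treated A-498 libraries that carried PD-L1si than in those that carried Cnsi. There 4 of 10 were called lower and none higher, where 5.75% of all genes tested were called lower, 4.36% higher and 10.1% in either direction: HLA-DQA1, HLA-DQB1, HLA-DRB1 and HLA-DPB1. By the adjusted p alone, without the fold threshold, 8 were lower, against 17.8% of all genes. In 9 of the 10 genes each PD-L1si library lay below each Cnsi library, which held for 21.3% of all genes, and HLA-DMB overlapped. The median log2 difference of the 10 genes was -0.41, against 0.01 over all genes.

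HLA-DQA1 had the largest difference of the 10. Its level was 62.1, 59.0 and 57.8 CPM with Cnsi and 24.7, 24.8 and 22.0 CPM with PD-L1si, a change of -60.0% in the mean. The groups did not overlap, and the log2 difference was -1.32 ± 0.0604 (n = 3 per group, edgeR adjusted p = 1.8e-17). HLA-DQB1, its partner chain, had 77.7, 73.6 and 73.1 CPM with Cnsi and 50.1, 48.9 and 49.9 CPM with PD-L1si (-0.59 ± 0.0503, adjusted p = 3.81e-11). The α chain of DQ thus fell further than the β chain: the log2 ratio of HLA-DQA1 to HLA-DQB1 was lower by 0.73 with PD-L1si, with no overlap, at an exact two-sided permutation p of 0.1, the smallest that 3 against 3 libraries allow (0.2 when adjusted over 12 such ratios). Any shift of reads between alleles of the DQ genes was not measured.

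Among the other chains, HLA-DRB1 had 122, 123 and 117 CPM with Cnsi and 84.1, 88.1 and 81.5 with PD-L1si (-0.52 ± 0.0461, adjusted p = 1.04e-10). HLA-DPB1 had 73.1, 67.8 and 67.1 CPM against 49.6, 49.5 and 46.8 (-0.51 ± 0.0570, adjusted p = 3.76e-09). Both lay just past the fold threshold and dropped below it without replicate 3 of the PD-L1si IFNγ group, at -0.49 and -0.48, which leaves 2 of 10 genes called, while HLA-DPB1 did so also without replicate 1 of the Cnsi IFNγ group. HLA-DRA had 226, 215 and 202 CPM against 163, 158 and 151 (-0.45 ± 0.0456, adjusted p = 1.74e-09), and HLA-DPA1 119, 116 and 118 against 94.0, 90.7 and 86.7 (-0.38 ± 0.0468, adjusted p = 5.23e-08). These 2 α chains were separated from Cnsi in every library and fell short of the fold threshold.

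The genes that act beside the chains moved less. CD74 had 3243, 3075 and 3203 CPM with Cnsi and 2932, 2478 and 2677 with PD-L1si (-0.24 ± 0.0438, adjusted p = 4.58e-05), and CIITA had 176, 166 and 177 against 164, 144 and 153 (-0.17 ± 0.0445, adjusted p = 0.00301). Neither passed the fold threshold, and neither pair of groups overlapped. HLA-DMA differed by -0.06 ± 0.0488 (adjusted p = 0.335, interval -0.16 to 0.03) and HLA-DMB by -0.13 ± 0.0729 (adjusted p = 0.166, interval -0.28 to 0.01), so that a fall of over 0.28 lies outside both approximate 95% intervals. The DM genes, which encode the exchange factor and not a presenting molecule, thus had smaller estimated differences than any chain gene, though genes were not tested against each other. The log2 ratio of HLA-DRA to CIITA was lower by 0.28 with PD-L1si in A-498, with no overlap (exact p = 0.1, adjusted 0.2).

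In the libraries labelled 786-0, none of the 10 genes was called with PD-L1si under IFNγ by edgeR, where 3.03% of all genes were. DESeq2 called 0 as well, and 3 genes had an unadjusted edgeR p under 0.05 (2 lower and 1 higher). The share of all genes at that unadjusted p is not given. The median log2 difference was -0.02. HLA-DQA1 had 2.26, 2.29 and 2.21 CPM with Cnsi and 1.65, 1.79 and 1.98 with PD-L1si (-0.32 ± 0.191, adjusted p = 0.319, interval -0.69 to 0.06), groups that did not overlap at 43 to 63 counts a library. HLA-DRA had 374, 372 and 367 CPM against 328, 325 and 350 (-0.15 ± 0.0588, adjusted p = 0.0994), and HLA-DMB 38.0, 35.7 and 38.1 against 33.8, 33.4 and 32.0 (-0.17 ± 0.0610, adjusted p = 0.0621). CIITA stood the other way, at 246, 280 and 287 CPM with Cnsi and 295, 293 and 299 with PD-L1si (0.12 ± 0.0504, adjusted p = 0.111). In 4 genes each PD-L1si library lay below each Cnsi library (HLA-DRA, HLA-DQA1, HLA-DQB1 and HLA-DMB), as in 15.2% of all genes, and in 1 each lay above, as in 14.9%. The remaining differences were -0.01 for HLA-DRB1 (adjusted p = 0.918), 0.01 for HLA-DPA1 (0.923), -0.02 for HLA-DPB1 (0.858), -0.15 for HLA-DQB1 (0.439), 0.05 for HLA-DMA (0.6) and 0.03 for CD74 (0.77). For CD74 the interval ran from -0.08 to 0.14, and for HLA-DPB1 from -0.14 to 0.10.

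**Figure D4:**
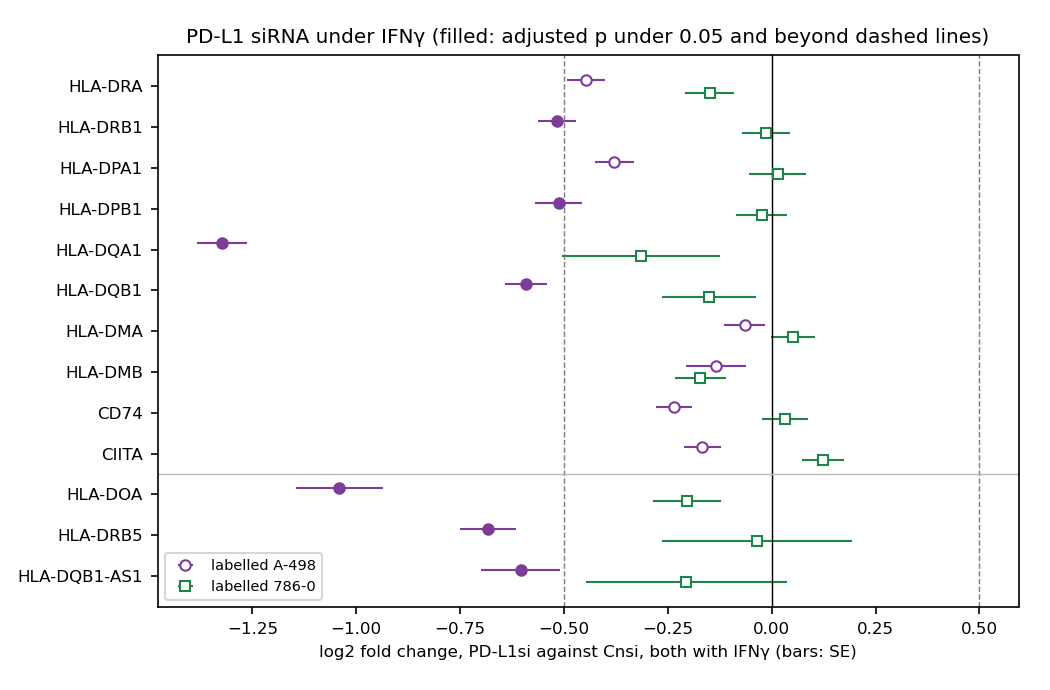
Log2 fold change with PD-L1si against Cnsi, both with IFNγ (x axis, bars are SE), for the 10 genes and, under the grey line, 3 other genes of the class II region; circles are A-498, squares 786-0, and filled points are called. In A-498 the differences run from -1.32 for HLA-DQA1 to -0.06 for HLA-DMA, and no 786-0 point is filled.

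The difference between the lines in this siRNA effect was tested in a model of all 24 libraries, as 786-0 minus A-498. It was called for 2 of the 10 genes, both higher, where 2.96% of 17999 genes were called higher: HLA-DQA1 (1.02 ± 0.170, adjusted p = 3.99e-05) and HLA-DRB1 (0.51 ± 0.0768, adjusted p = 5.98e-06). HLA-DRB1 dropped below the fold threshold, to 0.48 to 0.50, without replicate 2 of the A-498 Cnsi IFNγ group, replicate 3 of its PD-L1si IFNγ group, replicate 1 of the 786-0 Cnsi IFNγ group or replicate 2 of its PD-L1si IFNγ group. By the adjusted p alone 8 genes were higher, against 8.86% of all genes. HLA-DPB1 lay on the threshold at 0.50 (edgeR adjusted p = 7.63e-05). It was called in 18 of 33 alternatives, among them the fit with no fold threshold and DESeq2, which called 3 genes. HLA-DQB1 differed by 0.45 (0.00236), HLA-DPA1 by 0.40 (0.00105), HLA-DRA by 0.31 (0.00653), CIITA by 0.30 (0.0015) and CD74 by 0.28 (0.00652). For the DM genes the difference was 0.13 (adjusted p = 0.264) and -0.03 (0.899). The effect on the target differed as well: the siRNA effect on CD274 was smaller in 786-0 by 1.87 on the log2 scale, and its part in these differences was not tested.

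Without IFNγ, levels were too low in A-498 for most of the siRNA comparison. HLA-DPA1, at 1, 2 and 5 counts with Cnsi and 0, 0 and 0 with PD-L1si, was called lower (adjusted p = 0.00467), 1 of 10 genes where 5.6% of all genes were. The call rests on 8 counts and was lost without replicate 3 of the Cnsi group (adjusted p = 0.0596). CD74 had 18.3, 18.7 and 18.9 CPM with Cnsi and 15.9, 17.1 and 16.9 with PD-L1si, with no overlap (-0.16, adjusted p = 0.0546). HLA-DPA1 and CD74 were the 2 genes of the 10 whose PD-L1si libraries all lay below the Cnsi libraries, as did those of 24.2% of all genes. In 786-0 HLA-DRA had 9.94, 7.94 and 7.37 CPM with Cnsi and 5.34, 6.62 and 5.64 with PD-L1si. It was called lower (-0.52 ± 0.0993, adjusted p = 0.000684), 1 of 10 where 1.63% of all genes were. Its adjusted p stayed at or under 0.0114 without each library, but its difference moved to -0.38 without replicate 1 of the Cnsi group, -0.44 without replicate 1 and -0.49 without replicate 3 of the PD-L1si group, all under the fold threshold. The other DR and DP chains stood at -0.31 for HLA-DRB1 (adjusted p = 0.0508), -0.45 for HLA-DPA1 (0.136) and -0.50 for HLA-DPB1 (0.0602), none called, though HLA-DPB1 was called without replicate 3 of the Cnsi group or replicate 1 or 2 of the Cnsi IFNγ group, which gave 2 calls. HLA-DRA, HLA-DPB1 and CIITA did not overlap between the siRNAs and were lower with PD-L1si, as were 16.8% of all genes.

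Whether the siRNA changed the IFNγ effect was tested as an interaction. In A-498 it was called for HLA-DPA1 (4.04, adjusted p = 0.0306), 1 of 10 where 1.81% of all genes were called higher. That value rests on the same 8 untreated counts and was not called without replicate 3 of the Cnsi group (adjusted p = 0.183) or without any one untreated PD-L1si library. For HLA-DRA, HLA-DRB1, HLA-DQA1 and HLA-DQB1 both untreated A-498 groups were at 0, so the interaction has no defined size. With Cnsi and PD-L1si in turn, the A-498 log2 rise was 2.77 and 2.57 for CIITA and 7.41 and 7.34 for CD74. It was 4.48 and 4.49 for HLA-DMA and 3.52 and 3.25 for HLA-DMB, and none of these interactions was called. Of the 10 genes, 2 had an unadjusted edgeR p under 0.05, 1 higher and 1 lower. In 786-0 edgeR called 0 of 10, against 0.099% of all genes, and DESeq2 called 0. An unadjusted edgeR p under 0.05 stood beside 5 of the 10, all on the higher side. The share of all genes at that p is not given, so this count is not read as a tendency. HLA-DRA was at 0.37 (edgeR adjusted p = 0.29).

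The IFNγ effect with Cnsi was compared between the lines in the same way. It differed for 9 of the 10 genes, where 28.4% of all genes did: 8 were called lower in 786-0, where 13.2% of all genes were, and HLA-DMB was called higher, as 15.1% were. HLA-DMA rose less in 786-0 (-1.90 ± 0.105, adjusted p = 1.77e-18), as did CD74 (-0.77 ± 0.0873, adjusted p = 1.04e-09), whereas HLA-DMB rose more (0.70 ± 0.163, adjusted p = 0.000479). The 2 DM genes, whose products work as a dimer, thus differed between the lines in opposite directions. CIITA differed by -0.22 ± 0.0761 (adjusted p = 0.0162) and was not called. HLA-DPA1 differed by -4.24 (adjusted p = 1.06e-11) on 8 untreated counts in A-498. For HLA-DRA, HLA-DRB1, HLA-DPB1, HLA-DQA1 and HLA-DQB1, with 0 to 3 counts in an untreated group, the size cannot be read, and HLA-DQA1 (adjusted p = 0.028) lost its call without replicate 2 of the 786-0 Cnsi group, which holds the single read of that group.

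Other genes of the class II region also rose with IFNγ. Of 11 such genes 10 had a row, and those tested rose with IFNγ, 5 of 5 in A-498 and 8 of 8 in 786-0. HLA-DOA, a chain of HLA-DO, which restrains HLA-DM, had 0 counts in untreated A-498 libraries and 261, 311 and 230 with Cnsi and IFNγ against 142, 97 and 107 with PD-L1si (siRNA difference -1.04 ± 0.105). In 786-0 its treated libraries held 645, 721 and 643 counts with Cnsi and 528, 646 and 629 with PD-L1si (-0.20 ± 0.0819). HLA-DRB5, a second DR β gene, had 722, 741 and 616 counts against 428, 357 and 365 in A-498 (-0.68 ± 0.0667). In 786-0 it had 56, 37 and 72 counts against 41, 65 and 61 (-0.04 ± 0.229), which overlapped. How reads divide between HLA-DRB5 and the alleles of HLA-DRB1 was not measured. HLA-DQB1-AS1, antisense to HLA-DQB1, differed by -0.60 in A-498 and -0.21 in 786-0. The strand setting given for the counting is not the usual one for the library kit and was not checked. Reads in the HLA-DQB1-AS1 row and those of HLA-DQB1 therefore cannot be told apart. How far reads from the opposite strand enter any other row was not measured. Of these genes 4 of 5 were called lower with PD-L1si under IFNγ in A-498, against 5.75% of all genes, and 0 of 8 in 786-0 by edgeR, where 1 had an unadjusted p under 0.05. Genes called in the lists that follow are read against the same shares of all genes. Counts at an unadjusted p under 0.05 have no such share beside them and are not read as results. With IFNγ and Cnsi 18.2% were called higher and 18.5% lower in A-498, and 11.1% and 7.39% in 786-0. With PD-L1si under IFNγ 4.36% were called higher and 5.75% lower in A-498, and 1.29% and 1.74% in 786-0.

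Of the factors that hold CIITA at the promoter, 4 of 10 were called higher with IFNγ and Cnsi in A-498 and 1 of 9 in 786-0, the latter near the 11.1% of all genes. RFX5, the DNA-binding RFX subunit, rose by 1.35 in A-498 and 1.49 in 786-0. CREB1, which binds next to the X box, stood at 0.77 and 0.24, and RFXANK, another RFX subunit, at 0.50 and 0.28, each called in A-498 and not in 786-0. Under IFNγ edgeR called 0 of 10 and 0 of 9 with PD-L1si, with 3 and 4 at an unadjusted p under 0.05.

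Upstream of CIITA, 8 of 11 genes listed for its induction pathway rose with IFNγ in A-498 and 5 of 6 in 786-0. These counts include an inhibitor of the pathway, SOCS1. IRF1, the transcription factor that acts on the CIITA promoter, rose by 4.62 and 4.77, and SOCS1, the feedback inhibitor of JAK kinases, by 5.68 and 5.00. JAK2 rose by 3.07 in A-498 and was not measured in 786-0. Without IFNγ, IRF1 was called lower with PD-L1si in A-498 (-0.86), 1 of 11, against 5.6% of all genes. Its IFNγ rise there was 5.28 with PD-L1si. The interaction was called higher for IRF1 (0.65), 1 of 11, against 1.81% of all genes. In 786-0 without IFNγ SOCS1 was called higher with PD-L1si (0.88), 1 of 6, as were 252 of the 21209 genes tested. For the siRNA under IFNγ edgeR called 0 of 11 and 0 of 6, with 9 and 2 at an unadjusted p under 0.05. By the adjusted p alone 7 of 11 were lower in A-498 and 1 higher, at a median of -0.20. By the same rule 17.8% of the 20916 genes tested were lower and 3390 of them higher.

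Of the endosomal genes that trim antigen and invariant chain, 5 of 14 rose and 2 fell with IFNγ in A-498, and 5 of 12 rose and 1 fell in 786-0. The shares that fell were near those of all genes (18.5% and 7.39%). CTSS, the cathepsin that makes the last cuts in the invariant chain, rose by 4.32 and 3.84. CTSH, an aminopeptidase cathepsin, fell by 1.28 in A-498 and was not measured in 786-0. IFI30, the lysosomal thiol reductase, whose row overlaps another gene, was called higher in both lines on 0 to 26 counts a library. For the siRNA under IFNγ, 1 of 14 was called lower in A-498, CD63 at -0.57, a gene outside the naming rule that was singled out after its value was seen. In 786-0 0 of 12 were called by edgeR, with 4 at an unadjusted p under 0.05.

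Of the genes of class II turnover and the CD74 signalling complex, 2 of 6 rose and 1 fell with IFNγ in A-498, and 0 of 5 rose and 1 fell in 786-0. CD44, the signalling partner of CD74, rose by 1.14 with IFNγ in A-498 and was lower by 0.84 with PD-L1si under IFNγ, and it was not measured in 786-0. CD83, which stabilises class II at the surface, rose by 0.60 in A-498 and was lower there with PD-L1si at -0.94. In 786-0 it stood at 0.24 and -0.27, neither called. Without IFNγ, CD44 and CD83 were also called lower with PD-L1si in A-498, at -0.80 and -0.52. That was 2 of 6, against 5.6% of all genes. CXCR4, a co-receptor of the CD74 ligand MIF, was called lower with IFNγ in 786-0 (-0.74) and stood at -0.81 on 5 to 25 counts in A-498, not called. In all, the siRNA gave 2 of 6 lower in A-498 under IFNγ and 0 of 5 in 786-0 by edgeR, with 2 at an unadjusted p under 0.05.

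Costimulation genes were called higher with IFNγ for 2 of 6 in A-498 and 4 of 7 in 786-0. ICAM1, the adhesion ligand of LFA-1, rose by 2.24 and 2.57, and CD40, the receptor of CD40 ligand, by 1.56 and 1.32. CD80, a ligand of CD28, had 0 to 11 counts in any library. Under IFNγ ICAM1 was called lower with PD-L1si in A-498 (-0.73), 1 of 6, and stood at -0.33 in 786-0. There 0 of 7 were called by edgeR and 4 had an unadjusted p under 0.05. Without IFNγ ICAM1 was also called lower in A-498 (-1.57), 1 of 3 so called out of 6, against 5.6% of all genes. Its IFNγ rise in A-498 was 3.09 with PD-L1si. The interaction was called higher for ICAM1 (0.85, edgeR adjusted p = 5.53e-12), 1 of 2 out of 6, against 1.81% of all genes. Of the class II ligands of other receptors, LAG3, an inhibitory receptor that binds class II, had 0 to 23 counts and FGL1, a ligand of LAG3, 0 to 32. In 786-0 LAG3 was called higher with IFNγ (1.03) and FGL1 lower (-0.85), 2 of 3 tested, and FGL1 was called higher with PD-L1si under IFNγ (0.89). In A-498 0 of 2 were called in either comparison by edgeR, with 1 at an unadjusted p under 0.05 for IFNγ and 0 for the siRNA.

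Class I genes, with their own transactivator NLRC5, gave a reference within the same libraries. All 5 rose with IFNγ in both lines, NLRC5 by 3.28 and 3.89, HLA-B by 2.77 and 1.87, and B2M, the light chain of class I, by 2.26 and 2.08. The siRNA under IFNγ gave 0 of 5 by edgeR in each line, with 4 and 2 at an unadjusted p under 0.05. The median siRNA difference of the class I genes was -0.13 in A-498, beside -0.41 for the class II genes.

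Renal carcinoma markers moved in the same libraries: with IFNγ 1 of 9 rose and 3 fell in A-498 and 4 of 9 rose and 2 fell in 786-0, and with PD-L1si under IFNγ 3 rose and 1 fell in A-498 and 3 rose in 786-0. Among all genes 18.2% rose and 18.5% fell with IFNγ in A-498, and 11.1% and 7.39% in 786-0. CDH6, a kidney cadherin, fell by 3.57 with IFNγ in A-498 and was higher by 1.37 with PD-L1si under IFNγ, and in 786-0 it stood at -0.36 and -0.17, neither called. PAX8, a renal transcription factor named after its value was seen, was the 1 marker called lower with PD-L1si under IFNγ in A-498 (-0.77). CDH16, the kidney-specific cadherin, was called higher with PD-L1si under IFNγ in both lines, by 1.05 and 0.69. The summed level of the 10 markers was 4659 to 5130 CPM in untreated A-498 libraries and 4764 to 5570 CPM in treated ones. It was 4084 to 4540 and 5810 to 6685 CPM in those labelled 786-0. VIM was the highest marker, reaching 3626 and 4580 CPM in A-498 and 1754 and 2661 CPM in 786-0, so these sums are in large part VIM. The part of these markers in the class II differences was not tested. LRP2, the endocytic receptor megalin, had 0 to 11 counts in any library and was called higher with IFNγ in 786-0.

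Genes with a pattern like that of CIITA were sought by Pearson's r of log2(CPM + 1) over the 12 libraries of each line, averaged over the lines, among 12590 genes. The 5 most alike outside the class II genes were CXCL9 (0.9992), a T-cell chemokine, SERPING1 (0.999), the C1 inhibitor, APOL4 (0.9989), the gene ENSG00000284734 (0.9983) and LAP3 (0.9983), a leucine aminopeptidase. For HLA-DRA they were ENSG00000237568, ENSG00000254287, ENSG00000284734, GBP5, a guanylate-binding protein, and IDO1, the tryptophan-degrading enzyme, each at 0.9986. Of the class II genes HLA-DPB1 (0.9995), HLA-DPA1 (0.9994), HLA-DRB1 (0.999) and CD74 (0.9987) stood closer to HLA-DRA than these. The points share the same treated and untreated libraries, so any gene with a strong IFNγ effect gives a high r. With a pseudocount of 0.1, 3 of the 5 genes nearest CIITA and 2 of the 5 nearest HLA-DRA were the same.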

How the data were processed

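The authors trimmed reads with Trimmomatic (0.36.6), aligned them to GRCh38 with HISAT2 (2.1.0) without soft clipping, and counted them per gene with featureCounts (1.6.3), and the deposited values are raw counts. How strict alignment acts on polymorphic HLA reads was not measured. Symbols were matched by Ensembl identifier to GENCODE release 44 (39148 of 39321 rows). Within each line, genes with at least 10 summed counts over the 3 libraries of a group were fitted with the edgeR quasi-likelihood test (edgeR 4.0.16, R 4.3.3, robust, TMM scaling, 1 mean per group, Benjamini-Hochberg over all genes), and line differences used all 24 libraries. SE is the log2 fold change divided by the square root of F, and its intervals are approximate 95% ones. Scripts were tested on simulated data. Alternatives included DESeq2 (1.42.0) and each library left out. Ratios used exact permutation tests in scipy (1.17.1). Floors are 3 counts per group, and floors and counting intervals cover counting error alone. The class II genes and the other lists were chosen with earlier results of these data known. All class II genes are named. Of each other list, up to 3 genes are named, those with the largest IFNγ change among the called, with any called under PD-L1si in both lines, and 1 of these genes is not reported here.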

Additional observations from a re-analysis of the deposited data

Results flagged for a closer look

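The following results were singled out because 2 groups differed in an effect by a test of the difference itself (edgeR, adjusted over all genes), and no explanation was weighed. The IFNγ effect with Cnsi differed between the lines, as 786-0 minus A-498, by -1.90 on the log2 scale for HLA-DMA, 0.70 for HLA-DMB, -0.77 for CD74 and -4.24 for HLA-DPA1. It also differed, at sizes that cannot be read because an untreated group held 0 to 3 counts, for HLA-DRA (adjusted p = 1.69e-17), HLA-DRB1 (adjusted p = 2.73e-21), HLA-DPB1 (adjusted p = 4.35e-12), HLA-DQA1 (adjusted p = 0.028) and HLA-DQB1 (adjusted p = 4.74e-07). The PD-L1si effect under IFNγ differed between the lines by 0.51 for HLA-DRB1 and 1.02 for HLA-DQA1. The IFNγ effect on HLA-DPA1 differed between the siRNAs in A-498 by 4.04, on 8 untreated counts. For CD274, the target of the siRNA, the lines differed by -1.37 in the IFNγ effect and by 1.87 in the siRNA effect. With 3 libraries a group, no group was large enough to be searched for single outlying libraries.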

How the results depend on the processing

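All 10 genes stayed called higher with IFNγ under every alternative run in both lines and with either siRNA. Results on single genes were tallied for a subset of 88. For the siRNA effect without IFNγ it held HLA-DPA1 and CD74 in A-498 and the DR and DP chains in 786-0. For the interaction it held HLA-DPA1 in A-498 and HLA-DRA in 786-0. The other genes in these comparisons were left out of the tally. Of 2153 alternative fits of the subset in all, 2088 kept direction and side of the thresholds. A further 23 dropped below them, 32 rose past them and 10 changed sign, all of these last uncalled. The 32 include fits in which the fold threshold was removed. Within this subset, which holds few siRNA results without IFNγ, the changes of sign all came from leaving out 1 library of the IFNγ groups. With PD-L1si under IFNγ in 786-0, HLA-DPA1 then ran from -0.0788 to 0.0849, HLA-DMA from -0.00523 to 0.0857, CD74 from -0.0351 to 0.0832, HLA-DRB1 from -0.0450 to 0.00918 and HLA-DPB1 from -0.0821 to 0.0352. The line difference of HLA-DMB ran from -0.0986 to 0.0376. With PD-L1si under IFNγ in A-498, 8 genes were called without a fold threshold, 1 with log2 fold change over 1, and 2 to 4 when each library was left out. For the line difference of that effect the counts were 8, 1 and 1 to 3. With PD-L1si without IFNγ in 786-0 they were 0 with log2 fold change over 1, 2 with no filter on counts and 0 to 2 when each library was left out. In A-498 they were 0 when the 2 groups were fitted alone, where 4 of the genes could be tested, and 0 to 1 when each library was left out. The A-498 interaction gave 0 to 1 when each library was left out, and the line difference in IFNγ effect 8 to 9.

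Over all genes, without the fold threshold, the counts called in A-498 went from 7688 to 12819 with IFNγ in Cnsi, 7008 to 12233 with IFNγ in PD-L1si, 2113 to 7122 with PD-L1si under IFNγ, 1773 to 6452 with PD-L1si without it and 513 to 1900 for the interaction. With log2 fold change over 1 they went to 3656, 3204, 601, 553 and 119. In 786-0 they went from 3914, 3912, 643, 597 and 21 to 8238, 8172, 2974, 2721 and 46, and with log2 fold change over 1 to 1878, 1851, 163, 145 and 0. For the line differences they went from 5105 and 1008 to 8417 and 2933, and to 2145 and 286. The 786-0 interaction gave 47 with no filter on counts and 8 to 40 when each library was left out.

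Whether replicate numbers pair the libraries was not settled. Same-numbered libraries correlated from -0.161 to 0.373 in A-498 and from -0.485 to 0.324 in 786-0, and 7 and 4 of 12 correlated best with their own number. The mean r was 0.0779 for the same number and -0.0389 for other numbers in A-498, and -0.00255 and 0.00266 in 786-0. With a replicate block the counts of class II genes called were 10, 10, 4, 1 and 1 in A-498, 10, 10, 0, 1 and 0 in 786-0 and 9 and 2 for the line differences, as without it. Replicates differed by more than sampling noise (chi-square per degree of freedom 1.63 to 24.3). At 0 to 8 untreated counts, A-498 chain genes allow no reading of siRNA effects without IFNγ.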
